A study of Mus musculus with 6 samples.

Results

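The genes described here are 10 that are known from the early ovary or that act on its side of sex determination, namely Wnt4, Rspo1, Fst, Bmp2, Msx1, Irx3, Runx1, Kitl, Cdkn1b and Zbtb7c. They were chosen by symbol, all 10 were found, and they are 10 of the 11736 genes with a deposited value. RNA was measured in somatic cells of XY C57BL/6 mouse gonads at embryonic day E11.5, in 3 Cdyl-Het libraries (heterozygous for a Cdyl deficiency) and 3 Cdyl-KO libraries (homozygous). All 6 came from animals of the Nr5a1-hCD271 genotype, whose hCD271 surface marker was used to pull out gonadal somatic cells with magnetic beads, so both groups carry this transgene and the controls carry the Cdyl deficiency in the heterozygous state. The sources used here give neither the form of the Cdyl mutation nor whether a library came from 1 embryo or a pool. P-values therefore measure the spread among these 6 libraries and nothing wider, and that spread may be technical.

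The gonad of this stage can become a testis or an ovary. In XY embryos SRY switches on Sox9, and FGF9 maintains it; in XX embryos WNT4 and RSPO1 stabilise beta-catenin, and follistatin and BMP2 act with them in the ovary. These programmes oppose each other, and loss of Wnt4 or Rspo1 in XX mice leads to partial sex reversal. CDYL, a chromatin protein with a chromodomain, recognises methylation on histone H3 and acts in gene repression.

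Levels are given as scaled RPKM, that is reads per length of gene and per depth of library after a scaling factor for each library. Comparisons between genes rest on the gene lengths behind the deposited values, which no source used here states. Changes are differences in log2(scaled RPKM + 1), Cdyl-KO minus Cdyl-Het, from limma, and a gene is said to have risen or fallen where its p, adjusted by Benjamini-Hochberg over all 11736 genes, was under 0.05. The depth implied by the steps between low values was 34.6 to 45.2 M reads per library, and the markers of the sorted population, Nr5a1, Gata4, Wt1, Lhx9, Emx2 and Cbx2, were all read in every library. Cdyl itself lay at 7.77 to 8.22 scaled RPKM in Cdyl-Het and at 6.77 to 7.07 in Cdyl-KO (log2 change -0.19, adjusted p = 0.0702; 0.0145 without scaling), which does not check the labels, since the altered part of the gene is not known here. In all, 548 genes rose and 332 fell; on the deposited values without scaling the split was 305 against 1558, because the median log2 difference of all genes is then -0.12 instead of 0.00.

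Of the 10 genes, 7 rose, 0 fell and 3 did not pass (unadjusted p was under 0.05 for the same 7 higher genes and for 1 lower gene, Irx3). Over all genes 4.67% rose and 2.83% fell, 7.50% together, by adjusted p. The share of all genes with unadjusted p under 0.05 was not counted and is larger. The median log2 change of the 10 was 0.46. After scaling, the smallest Cdyl-KO value lay above the largest Cdyl-Het value in 8 of the genes, and the reverse held in Irx3. Of all genes, 17.1% and 14.5% were separated in these directions, 31.6% together. On the deposited values the groups of Runx1, 1 of the 8, overlapped. The genes had been picked with these results known, so their share is a description of this set.

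RefSeq promoter windows (GRCm38.p6, 250 bases before to 50 after a start) were found for 7 of the 10 genes. The stretches before the annotated start of 4 of the genes that rose are shown because these genes moved together and their start regions differ in make-up. Each is written 5′ to 3′ along the gene, and capitals mark a GC box (GGGCGG) or a CCAAT box (CCAAT), each searched on both strands ; matches of the GC box may overlap one another.
Wnt4, chr4:137277385-137277488, + strand: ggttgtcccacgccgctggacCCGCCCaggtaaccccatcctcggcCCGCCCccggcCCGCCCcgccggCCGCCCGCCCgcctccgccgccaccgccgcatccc
Rspo1, chr4:124986180-124986429, + strand: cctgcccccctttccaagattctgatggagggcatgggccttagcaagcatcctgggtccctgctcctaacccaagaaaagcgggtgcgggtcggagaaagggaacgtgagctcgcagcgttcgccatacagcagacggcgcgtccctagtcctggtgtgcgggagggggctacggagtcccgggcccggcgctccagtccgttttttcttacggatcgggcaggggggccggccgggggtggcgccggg
Msx1, chr5:37824586-37824835, - strand: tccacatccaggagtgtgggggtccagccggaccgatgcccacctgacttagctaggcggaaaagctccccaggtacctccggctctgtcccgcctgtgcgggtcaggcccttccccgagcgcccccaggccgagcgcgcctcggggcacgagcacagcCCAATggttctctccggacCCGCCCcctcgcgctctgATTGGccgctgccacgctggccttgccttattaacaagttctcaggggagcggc
Cdkn1b, chr6:134920151-134920400, + strand: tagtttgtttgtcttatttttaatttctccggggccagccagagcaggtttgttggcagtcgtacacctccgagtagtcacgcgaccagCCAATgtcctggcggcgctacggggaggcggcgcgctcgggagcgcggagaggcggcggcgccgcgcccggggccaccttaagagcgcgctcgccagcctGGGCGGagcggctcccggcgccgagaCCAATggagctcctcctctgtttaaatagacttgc

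In the full windows, Wnt4 was 84.3% G and C with 51 CpG dinucleotides and 8 GC-box matches, more CpG than 99.3% of the 32851 windows in the table. The windows of Rspo1, Msx1 and Cdkn1b held 29, 29 and 30 CpG, against a median of 7. A GC box was found in 35.7% and a CCAAT box in 37.4% of all windows. Rspo1 had neither, and Msx1 and Cdkn1b had both. The TCF/LEF words through which beta-catenin acts (searched on both strands as CTTTGAA or CTTTGAT and as CTTTGTA or CTTTGTT) were in none of the windows of the 7 genes and in 16.9% of all windows, which says only that these letters are not in this stretch. Kitl, which did not pass the test, also had a CpG-rich window with 28 CpG, that of Irx3 had 14, and the 2 windows of Runx1 had 2 and 35.

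**Figure D1:**
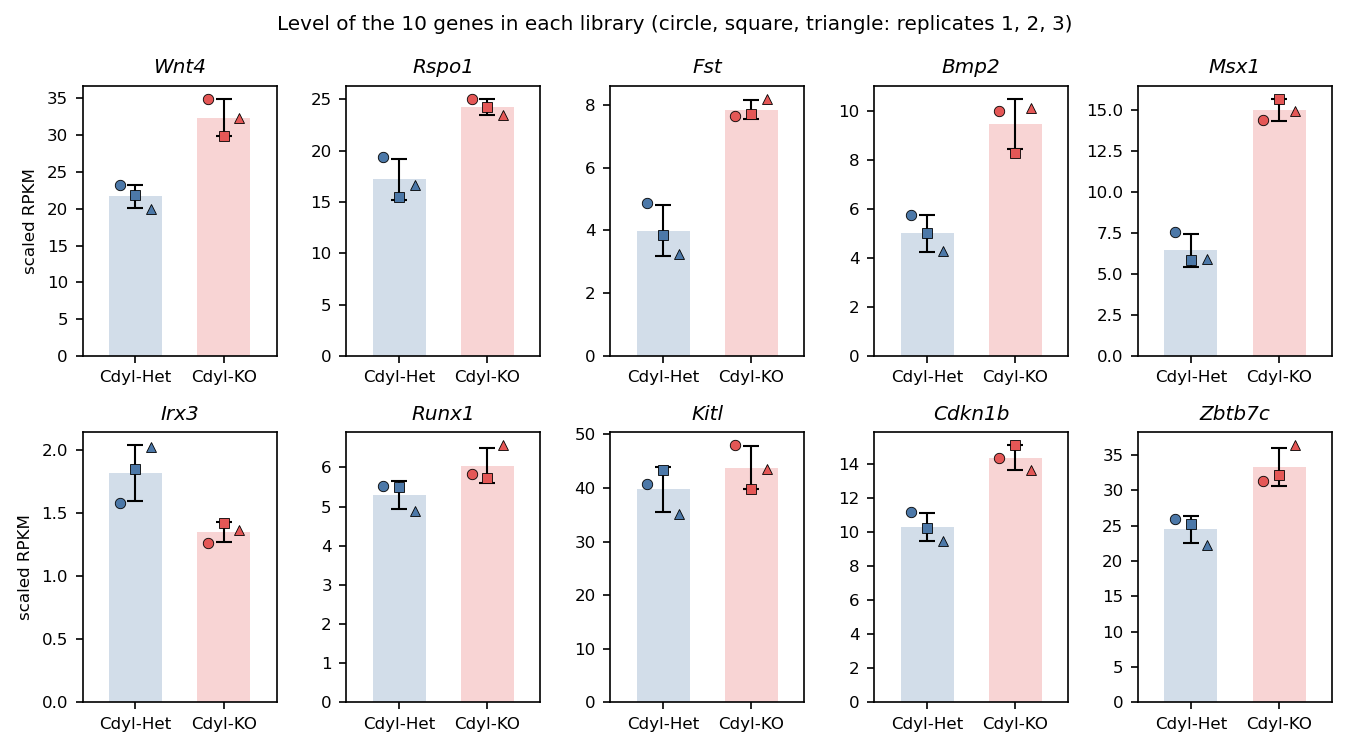
Level in scaled RPKM (vertical axis, from 0) of each of the 10 genes in the Cdyl-Het and Cdyl-KO libraries; bars are group means, error bars the SD over 3 libraries, and circles, squares and triangles replicates 1, 2 and 3. The groups are apart for Wnt4, Rspo1, Fst, Bmp2, Msx1, Cdkn1b, Zbtb7c, Runx1 and Irx3 and overlap for Kitl.

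The secreted Wnt pair was higher in Cdyl-KO. Wnt4 encodes the Wnt ligand of the ovarian pathway (chromosome 4, 137277489 to 137299726, + strand). It was at 23.2, 21.9 and 20.03 scaled RPKM in Cdyl-Het replicates 1, 2 and 3, and the Cdyl-KO replicates held 34.9, 29.9 and 32.4. The lowest Cdyl-KO library was thus well above the highest Cdyl-Het library. The means were 21.7 ± 1.58 and 32.4 ± 2.52 (SD, n = 3 each), and the log2 change was 0.56 (SE 0.08, 95% interval 0.37 to 0.74, adjusted p = 0.0105). Wnt4 passed in each of the 6 fits that left out a library, with changes of 0.50 to 0.61 and adjusted p of 0.0174 to 0.0459.

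Rspo1 encodes the secreted protein that keeps Wnt receptors at the cell surface by way of LGR receptors (chromosome 4, 124986430 to 125009099, + strand). Its levels were 19.4, 15.5 and 16.7 scaled RPKM in Cdyl-Het, against 25.05, 24.3 and 23.5 in Cdyl-KO. The 3 Cdyl-KO libraries lay close together, with a coefficient of variation of 3.27% against 11.6% in Cdyl-Het, where replicate 1 was high. The log2 change was 0.48 (95% interval 0.29 to 0.67, adjusted p = 0.0194). Leaving out Cdyl-Het 2, Cdyl-Het 3, Cdyl-KO 1 or Cdyl-KO 2 ended the call (adjusted p = 0.0555, 0.0777, 0.0684 and 0.0589; range of every alternative 0.0102 to 0.0777), at changes of 0.41 to 0.48.

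Fst and Bmp2 act on TGF-beta superfamily signalling, as an antagonist and as a ligand, and both rose. Fst encodes follistatin, which binds and blocks activins (chromosome 13, 114452290 to 114458951, - strand). It was at 4.87, 3.86 and 3.25 scaled RPKM in Cdyl-Het and at 7.63, 7.71 and 8.19 in Cdyl-KO. The Cdyl-Het libraries were widely spread (coefficient of variation 20.5%) and the Cdyl-KO libraries narrowly (3.83%). The mean went from 3.99 ± 0.819 to 7.84 ± 0.3001 (SD, n = 3 each), a ratio of 1.97 and a log2 change of 0.84 (95% interval 0.57 to 1.11, adjusted p = 0.0102). Between 699 and 1575 reads per library stood behind these values.

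Bmp2 encodes a bone morphogenetic protein that is made in the fetal ovary (chromosome 2, 133552159 to 133562885, + strand). Its values were 5.76, 4.998 and 4.26 scaled RPKM in Cdyl-Het, against 9.997, 8.28 and 10.1 in Cdyl-KO. Cdyl-KO replicate 2 was the lowest of its group and still above every Cdyl-Het library. The mean ratio was 1.89 and the log2 change 0.80 (95% interval 0.54 to 1.06, adjusted p = 0.0103). Fst and Bmp2 both passed in all 6 fits that left out a library, with adjusted p of 0.00496 to 0.0461 and of 0.0109 to 0.0460.

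Among the transcription factors, Msx1 changed most. It encodes a homeobox factor (chromosome 5, 37820485 to 37824583, - strand) that is known as a target of BMP signalling. Msx1 was at 7.57, 5.82 and 5.88 scaled RPKM in Cdyl-Het and at 14.4, 15.7 and 14.9 in Cdyl-KO. Every Cdyl-KO library held more Msx1 than any Cdyl-Het library, and the mean ratio was 2.33. The log2 change was 1.11 (SE 0.10, 95% interval 0.89 to 1.34, adjusted p = 0.00229), which was higher than that of 99.6% of all genes. It stayed between 1.06 and 1.22 when any library was left out.

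Zbtb7c, a zinc finger factor of the BTB family (chromosome 18, 75820178 to 76148564, + strand), was at 25.9, 25.2 and 22.3 scaled RPKM in Cdyl-Het and at 31.3, 32.2 and 36.4 in Cdyl-KO. The groups were apart, and the log2 change was 0.43 (95% interval 0.24 to 0.62, adjusted p = 0.0248). Of the 6 fits with a library left out, the 1 without Cdyl-Het replicate 1 kept the call (adjusted p = 0.0394), and those without any of the other libraries gave 0.0532 to 0.0777 (range of every alternative 0.0177 to 0.0968).

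Runx1, which encodes a Runt-domain factor of pre-granulosa cells and of blood (chromosome 16, 92601466 to 92826149, - strand), did not pass. Its values were 5.51, 5.51 and 4.88 scaled RPKM in Cdyl-Het, against 5.84, 5.73 and 6.57 in Cdyl-KO. After scaling the groups did not overlap but almost met, and the log2 change was 0.16 (95% interval -0.01 to 0.33, adjusted p = 0.218). On the deposited values they overlapped, at 5.19 to 5.77 in Cdyl-Het and 5.55 to 6.09 in Cdyl-KO. The log2 change was then 0.04 (limma, adjusted p = 0.694). With 2397 to 3310 reads per library, the depth was higher than for Fst or Bmp2. The interval leaves room for a rise of up to 0.33, less than the lower bound for Msx1, Fst or Bmp2.

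After scaling, Irx3 was the only 1 of the 10 with a change below 0. It encodes an Iroquois homeobox factor of the developing ovary (chromosome 8, 91798525 to 91802067, - strand). It was at 1.58, 1.85 and 2.02 scaled RPKM in Cdyl-Het and at 1.27, 1.43 and 1.36 in Cdyl-KO. All Cdyl-KO libraries were below all Cdyl-Het libraries, but the difference did not pass (log2 change -0.26, 95% interval -0.50 to -0.02, adjusted p = 0.168). These values rest on 146 to 262 reads per library, and Irx3 was among the genes of lowest mean level, at percentile 6.996. The other Iroquois gene in the tables, Irx1, was at 1.19 ± 0.145 and 1.26 ± 0.360 scaled RPKM (SD, n = 3 each), with a log2 change of 0.04 (adjusted p = 0.905; -0.0454 without scaling).

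Exons of Fst, Irx3 and Runx1 overlap those of the antisense genes Gm47040, Irx3os and Gm26626 over 115, 124 and 106 bases. No source used here states the strand setting of the counting, so these pairs may share reads.

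Kitl encodes KIT ligand, by which granulosa and Sertoli cells support germ cells (chromosome 10, 100015630 to 100100416, + strand). It was the most abundant of the 10 per length, at 40.7, 43.3 and 35.2 scaled RPKM in Cdyl-Het, against 48.0, 39.9 and 43.5 in Cdyl-KO. The groups overlapped, and the log2 change was 0.14 after scaling (adjusted p = 0.418) and -0.0045 on the deposited values. Its 95% interval, -0.09 to 0.36 after scaling, lies below the estimate for Wnt4.

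Cdkn1b encodes the cyclin-dependent kinase inhibitor p27, an inhibitor of cell cycle entry that marks pre-granulosa cells leaving the cycle (chromosome 6, 134920401 to 134925513, + strand). It was at 11.2, 10.3 and 9.49 scaled RPKM in Cdyl-Het and at 14.4, 15.1 and 13.6 in Cdyl-KO. The groups were apart by more than either group's own range, and the log2 change was 0.44 (95% interval 0.28 to 0.61, adjusted p = 0.0157). Leaving out any of the same 4 libraries as for Rspo1 ended the call (adjusted p of 0.0537 to 0.0582; range of every alternative 0.0104 to 0.0582), at changes of 0.39 to 0.44.

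**Figure D2:**
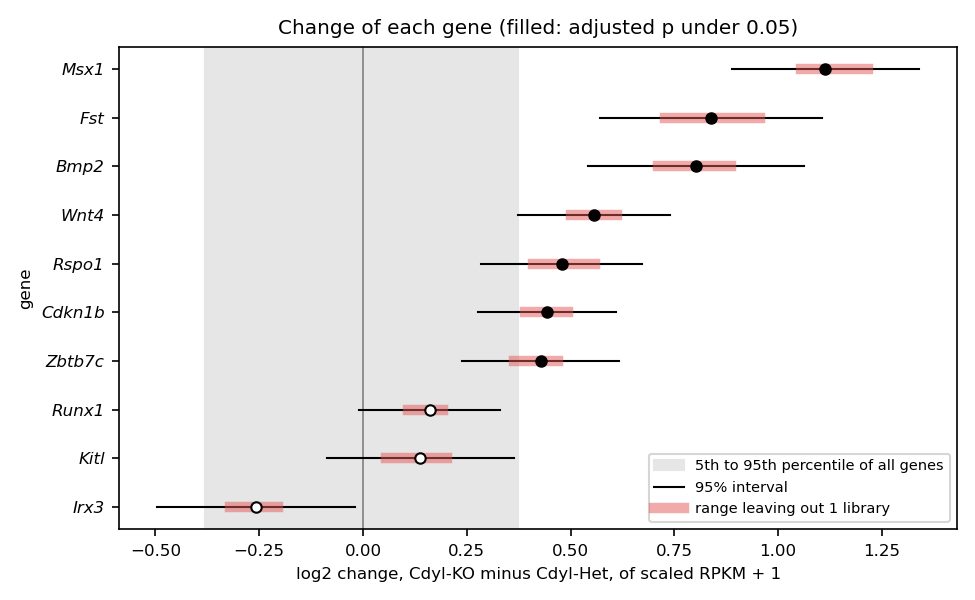
Log2 change of each gene (horizontal axis, Cdyl-KO minus Cdyl-Het, of scaled RPKM + 1) with its 95% interval as a thin line and the range over the 6 fits that left out a library as a red band; filled points have an adjusted p under 0.05 and the grey area spans the middle 90% of all genes. The 7 filled points run from 0.43 (Zbtb7c) to 1.11 (Msx1), and Irx3 is the point below 0.

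The order of the levels per length differed between the groups in its lower part. In Cdyl-Het the means ran from Kitl (39.7 scaled RPKM) through Zbtb7c, Wnt4, Rspo1, Cdkn1b, Msx1, Runx1, Bmp2 and Fst down to Irx3 (1.82). Neighbours whose libraries overlapped there were Zbtb7c with Wnt4, Runx1 with Bmp2, and Bmp2 with Fst. In Cdyl-KO, Msx1 (14.98 ± 0.655) had moved past Cdkn1b (14.4 ± 0.734; SD, n = 3 each), though their libraries overlapped, as did those of Zbtb7c and Wnt4. Bmp2 and Fst, whose means had been below that of Runx1 in Cdyl-Het, were both above it in Cdyl-KO (9.46 and 7.84 against 6.05), with no overlap.

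The libraries of a group also differed among themselves. Cdyl-Het replicate 1 had the highest Cdyl-Het value for all 7 genes that rose, and replicate 3 the lowest for 5 of the 7. Rspo1 in that replicate was 0.07 below the mean of the 6 libraries on the log2 scale, against 0.37 and 0.27 below it in replicates 2 and 3. The same library had the lowest Cdyl-Het values of Sox9 (43.3 against 57.1 and 54.6 scaled RPKM) and of Fgf9 (4.01 against 6.56 and 5.35). Without it, the changes of Fst, Rspo1 and Msx1 were 0.96, 0.56 and 1.22. What sets this library apart was not tested.

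**Figure D3:**
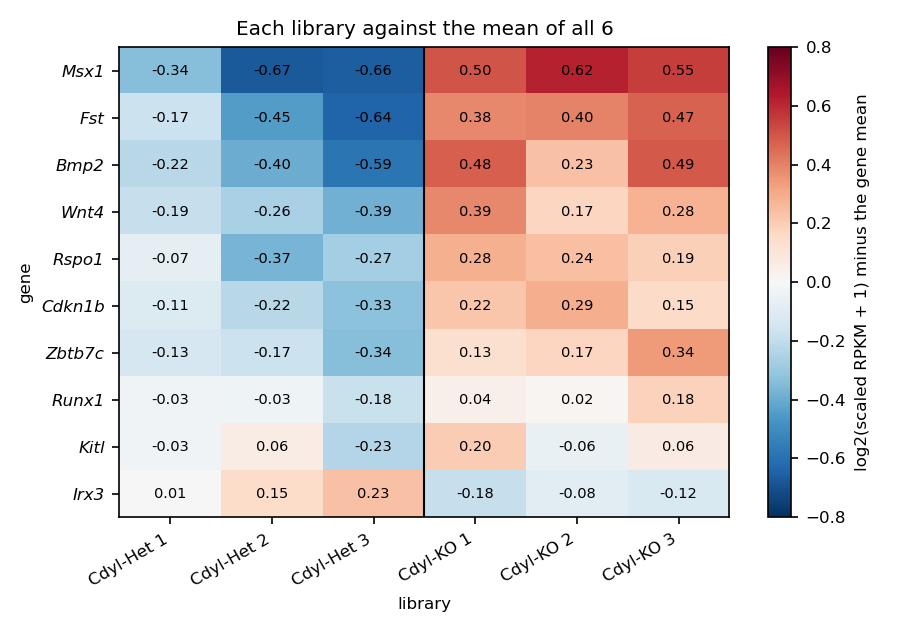
Each gene (rows, in order of change) in each library (columns) as log2(scaled RPKM + 1) minus the gene's mean over the 6 libraries; red is above and blue below that mean. Msx1 runs from -0.67 to 0.62, Cdyl-Het replicate 1 is the palest Cdyl-Het column for the genes that rose, and Irx3 has the opposite colours.

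The profiles over the 6 libraries can be compared by the root-mean-square difference of these centred log2 values, where a smaller number means a closer match. Among the 10, the closest pairs were Rspo1 with Cdkn1b (0.08) and Fst with Bmp2 (0.09), and Irx3 was at 0.24 to 0.71 from the others. Of 6654 genes with a mean of at least 5 scaled RPKM, the closest to Wnt4 were Grik5, Ccdc80, Cuedc2, Emx2 and Tkt (0.04 each; median of all 0.28). Emx2 is a homeobox factor needed for the gonad to form. The closest to Rspo1 were Ndufb10, Lef1, Upk3b, Stmn1 and Cpz (0.02 to 0.05; median 0.26), of which Lef1 is a transcription factor of the Wnt pathway and Upk3b a marker of coelomic epithelium. The closest to Fst were Mir675, Bmp2, Kif26a, Asns and Pcdh18 (0.08 to 0.10; median 0.43). Mir675 lies within H19, whose reads it may share. All of these changed upwards as well, and a close match over 3 and 3 libraries mostly says that a gene has a change of like size.

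Ratios of 2 genes within a library do not depend on scaling between libraries. In the Cdyl-Het libraries Wnt4 was below Sox9, which encodes the factor that drives Sertoli cell formation, with log2 ratios of -0.90, -1.38 and -1.45. In the Cdyl-KO libraries it was above Sox9, with 0.52, 0.57 and 0.07. The sign of this ratio thus differed between the groups in every library, and the group means lay 1.63 apart. Where 0 lies in such a ratio depends on the gene lengths behind the deposited values, which are not stated. The value of 0.07 is close to 0. The distance between the groups does not depend on these lengths. Rspo1 against Sox9 gave -1.16, -1.88 and -1.71 and then 0.04, 0.27 and -0.39, so the Cdyl-KO libraries were near parity.

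Against Fgf9, the growth factor that opposes Wnt4 in the gonad, Wnt4 was higher in all libraries, by 1.74 to 2.53 in Cdyl-Het and by 3.87 to 4.53 in Cdyl-KO on the log2 scale. Fst was above Fgf9 in Cdyl-Het replicate 1 (0.28) and below it in replicates 2 and 3 (-0.77 and -0.72). It was above Fgf9 in all Cdyl-KO libraries (2.26, 2.58 and 1.89). Sox9 and Fgf9 themselves fell (log2 changes -1.02 and -1.22, adjusted p = 0.0153 and 0.0120), so these ratios combine a rise and a fall. Sox9 lost its call when Cdyl-Het 2, Cdyl-Het 3 or Cdyl-KO 1 was left out (adjusted p = 0.0609, 0.0707 and 0.0531), and Fgf9 when Cdyl-Het 3 was left out (0.0592). Sry, which lies upstream of Sox9, rose by 0.40 on the log2 scale (adjusted p = 0.0222), but not past the threshold in 4 of the 6 fits without a library (up to 0.0787).

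**Figure D4:**
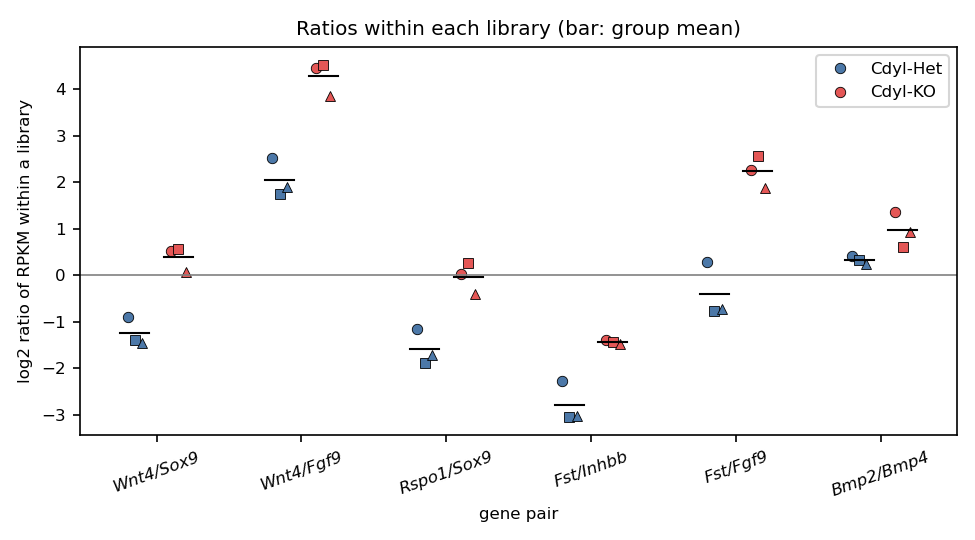
Log2 ratio of the RPKM of 2 genes within each library (vertical axis) for 6 pairs (horizontal axis); points are libraries, with replicates 1, 2 and 3 as circles, squares and triangles, and bars are group means. All Cdyl-KO points lie above all Cdyl-Het points in each pair, and Wnt4 against Sox9 goes from below 0 to above 0.

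Of 28 listed genes that receive and pass on the R-spondin and Wnt signal (37 were on the list), 2 rose, 0 fell and 26 did not pass. Unadjusted p in limma was under 0.05 for 6 higher and 0 lower genes, and the median log2 change was 0.12. Beside the counts of genes that rose or fell, here and in the lists below, the shares over all genes were 4.67% higher and 2.83% lower. These shares are for adjusted p. The share with unadjusted p under 0.05 was not counted and is larger. Fzd1, with an unadjusted p of 0.048, had an adjusted p of 0.192 (limma). The unadjusted counts here and below thus have no share beside them and show no excess. The 2 that rose were Bcl9l, a coactivator of beta-catenin, and Dvl1, a dishevelled protein that relays the Wnt signal. Their log2 changes were 0.32 and 0.33 (adjusted p = 0.0281 and 0.0293). Neither passed on the deposited values (0.0587 and 0.0785), and each passed in only 1 of the 6 fits without a library. Lgr4, a receptor for R-spondins, had means of 61.2 ± 5.08 and 65.3 ± 1.63 scaled RPKM (SD, n = 3 each), a change of 0.10 after scaling and -0.05 without it. Ctnnb1, which encodes beta-catenin, had a change of -0.01 (95% interval -0.15 to 0.13), and Znrf3 and Rnf43, the ubiquitin ligases that remove Wnt receptors, had -0.06 and 0.16 (adjusted p = 0.657 and 0.431).

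Among 13 listed Wnt targets and antagonists, 4 rose, 1 fell and 8 did not pass, with a median of 0.16. Sp5, a Wnt target that encodes a zinc finger factor, changed by 0.83 (adjusted p = 0.00375), and Tnfrsf19, a receptor gene, by 0.58 (0.0104). Axin2, a feedback inhibitor of the pathway that was named after its values were seen, changed by 0.32 (0.0346; 0.105 without scaling). Lef1 rose by 0.49 on the log2 scale. Sp5 and Tnfrsf19 passed in all 6 fits without a library, while Axin2 and Lef1 each passed in 1 of them (adjusted p up to 0.108 and 0.105). Ccnd1, which encodes cyclin D1, was the listed gene that fell (-0.46, adjusted p = 0.0138); it lost its call when Cdyl-Het 3 or Cdyl-KO 1 was left out (0.0529 and 0.0515).

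In the activin and BMP pathway, 4 of 27 listed genes rose, 2 fell and 21 did not pass, with a median of 0.13. The ID genes, which encode helix-loop-helix inhibitors and are direct targets of BMP signalling, were 3 of the 4. Id1 was at 58.6, 59.2 and 51.3 scaled RPKM in Cdyl-Het and at 113, 89.9 and 88.3 in Cdyl-KO, which put every Cdyl-KO library far above the Cdyl-Het range (log2 change 0.77, adjusted p = 0.0109). Id3 rose by 0.62 and Id2 by 0.49 (adjusted p = 0.00992 and 0.0129). Id1 and Id3 passed in all 6 fits without a library, and Id2 lost its call without Cdyl-Het replicate 2 or 3 (0.0540 and 0.0561). Id4, not past the threshold, had 0.28 (adjusted p = 0.148).

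The ligands and receptors of this pathway did not move as one. The level of Bmp7 fell, with means of 5.25 ± 0.298 and 3.87 ± 0.155 (scaled RPKM, SD, n = 3 each; log2 change -0.36, adjusted p = 0.0195), while Bmp4, with 3.93 ± 0.358 and 4.87 ± 0.879, did not pass (adjusted p = 0.256). The call for Bmp7 was lost in 4 of the 6 fits without a library (adjusted p up to 0.0729). Acvr2b, a receptor for activins, rose by 0.31 (adjusted p = 0.0219; 0.0710 on the deposited values and up to 0.0768 without a library). Acvr1, a type I receptor for BMPs that was named after its values were seen, changed by -0.34 (adjusted p = 0.0304) and passed in 1 of the 6 fits without a library (up to 0.105). Inhbb, which encodes the activin subunit that follistatin can block, was at 23.6, 31.8 and 26.5 scaled RPKM in Cdyl-Het and at 20.1, 20.6 and 22.8 in Cdyl-KO (log2 change -0.35, adjusted p = 0.0982; 0.0271 without scaling). The log2 ratio of Fst to Inhbb was -2.28, -3.04 and -3.03 in Cdyl-Het, against -1.40, -1.42 and -1.48 in Cdyl-KO. By these values per length, Fst was the lower of the 2 in every library.

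Of 11 other listed genes linked to the early ovary or to the gonad of both sexes, 3 rose, 1 fell and 7 did not pass, and the median was -0.01. Those that rose were Nr0b1, Emx2 and Lhx9 (log2 changes 0.50, 0.57 and 0.46), which are expressed in gonads of both sexes at this stage. Lhx9 lost its call in 4 of the 6 fits without a library (adjusted p up to 0.0874). Adamts19, a protease gene known to be higher in the fetal ovary than in the testis, went the other way. It was at 3.22, 3.19 and 4.003 scaled RPKM in Cdyl-Het and at 1.57, 1.73 and 1.81 in Cdyl-KO, with no overlap (log2 change -0.72, adjusted p = 0.00937).

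Around Kitl and Cdkn1b, 0 of 16 listed genes rose (limma; unadjusted p under 0.05 for 3), 2 fell and 14 did not pass. The 2 were Ccnd1 and Ccnd2, which encode D-type cyclins; Ccnd2 changed by -0.37 (adjusted p = 0.0252) and passed in 1 of the 6 fits without a library. Cdkn1a and Cdkn1c, the other p27-like inhibitors, had 0.43 and 0.22 (adjusted p = 0.0651 and 0.145), and Kit, the receptor of KIT ligand, had low means of 1.98 ± 0.291 and 1.87 ± 0.156 scaled RPKM (SD, n = 3 each). Of 4 listed relatives or partners of Runx1, Irx3 and Zbtb7c, 0 passed in either direction (limma, unadjusted p under 0.05 for 0). Among them was Cbfb, the partner of RUNX1 (-0.08, adjusted p = 0.624), but no other gene of the Runx family. On the testis side, 2 of 17 listed genes rose and 8 fell, with a median of -0.14. Gadd45g rose, as did Sry, and Etv4 and Spry4, which respond to FGF signalling, fell by 1.40 and 0.99 on the log2 scale.

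**Figure D5:**
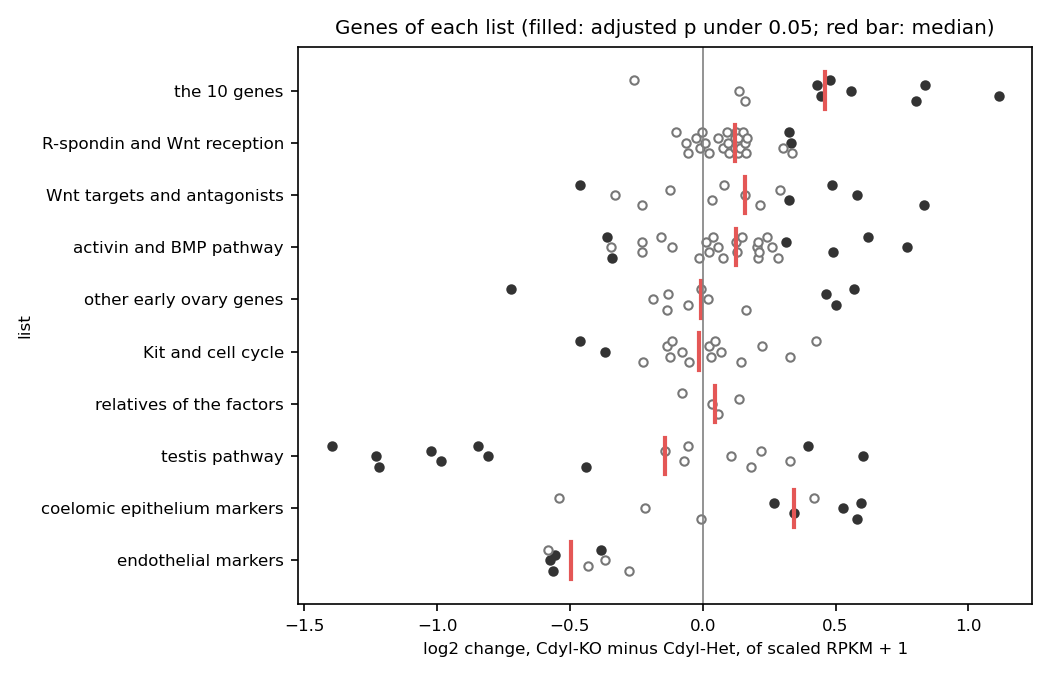
Log2 change (horizontal axis, Cdyl-KO minus Cdyl-Het, of scaled RPKM + 1) of every listed gene in 10 lists (rows); filled points have an adjusted p under 0.05 and red bars are list medians. The median is 0.46 for the 10 genes, 0.12 for R-spondin and Wnt reception and -0.49 for endothelial markers.

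Some markers of other cells of the gonad also differed between the groups. Of 9 listed markers of the coelomic epithelium, from which gonadal somatic cells arise and which itself is known to express genes of this group, 5 rose, 0 fell and 4 did not pass (unadjusted p under 0.05 for 6 higher and 1 lower). Their summed level was 194 to 226 scaled RPKM in Cdyl-Het and 280 to 290 in Cdyl-KO, and Cdyl-Het replicate 1 was again the highest of its group. This sum was made up mostly of Podxl (means 80.7 in Cdyl-Het and 122 in Cdyl-KO) and Aldh1a2 (56.0 and 74.8). The 5 that rose had log2 changes of 0.27 (Lrrn4), 0.34 (Krt8), 0.53 (Upk3b), 0.58 (Krt18) and 0.60 (Podxl). The other 4 lay between -0.54 (Aldh1a1, adjusted p = 0.105) and 0.42 (Aldh1a2, 0.0504), 3 of them below 0, with a list median of 0.34. Podxl passed in all 6 fits without a library, Krt8 and Krt18 in 1 each and Lrrn4 in none. Of 8 listed endothelial markers, 4 fell and 0 rose (limma, unadjusted p under 0.05 for 0 higher and 7 lower). All 8 had a change below 0, and their sum was 33.1 to 36.3 in Cdyl-Het and 21.7 to 23.9 in Cdyl-KO. The unadjusted counts of both lists stand without a share over all genes at that threshold. The part of either cell type in the rises of the 7 genes was not tested, and in bulk RNA fewer cells of a type and less RNA per cell cannot be told apart.

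Runx1 is also expressed in blood cells. The 5 listed blood markers, 3 of them globins, summed to 27.6 to 109 scaled RPKM in Cdyl-Het and to 28.8 to 78.2 in Cdyl-KO, a sum made up mostly of Hba-a1 and Hba-a2. None of the 5 passed (limma; unadjusted p under 0.05 for 1 lower gene). That gene was Hbb-bt, whose groups did not overlap (2.15 to 5.43 against 0.802 to 2.14 scaled RPKM, adjusted p = 0.101). Germ cell markers, of which Nanos3 and Kit were listed, summed to 3.34 to 5.15 and to 3.14 to 3.77. Mesonephric markers (6 listed) summed to 11.7 to 16.6 and 13.0 to 16.0; 1 of them, Pax8, rose (log2 change 0.40, adjusted p = 0.0227, passed in 1 of the 6 fits without a library) and the other 5 had changes below 0 that did not pass. Of 4 listed markers of neural crest, nerve and muscle, which summed to 12.8 to 15.8 and 14.4 to 19.6, Tubb3 rose by 1.15 (adjusted p = 0.0195; 0.0624 and 0.0604 without Cdyl-KO 2 or 3) and 3 did not pass. Of 10 listed interstitial progenitor markers 0 passed (limma; unadjusted p under 0.05 for 4 higher and 3 lower), with sums of 166 to 174 and 179.7 to 187. No listed marker of these types was at 0 in any library, and their part in the results was not tested. For these lists too, the unadjusted counts stand without a share over all genes.

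Level itself moves with the change in these data. After scaling, the median log2 change was -0.09 in the lowest of 4 level groups of equal size and 0.07 in the highest, where 9.07% of genes rose. Wnt4, Rspo1, Kitl, Cdkn1b and Zbtb7c are in the highest group, Bmp2 and Msx1 in the next, Fst and Runx1 in the second lowest (median -0.03), and Irx3 in the lowest. On the deposited values, without scaling, the same count of 7 genes rose, with changes from 0.29 (Zbtb7c, adjusted p = 0.0378) to 0.98 (Msx1, 0.00406) and 0.42 for Wnt4, 0.34 for Rspo1 and 0.71 for Fst. Wnt4, Fst, Bmp2 and Msx1 were the 4 genes that passed in every fit that left out a library.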

How the data were processed

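The authors deposited, for each library, a gene symbol and a value for the same 11736 genes. The genome build was mm10, and STAR and featureCounts 1.6.4 (Subread) are named, per the submitters' processing notes; no source used here states the annotation, the strand setting or the step that made the values. The deposited values were taken as RPKM, since they are not whole, have sums that differ between libraries and are highest for very short genes. The lowest value of a gene's larger group mean was 1.005, so low genes are missing. A count model could not be used.

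Values were scaled by a trimmed mean of log ratios to the first library (30% of ratios and 5% of levels trimmed at each end), log2 was taken after adding 1, and limma 3.58.1 in R 4.3.3 was fitted on group alone, with a trended prior. P-values were adjusted over all genes with a threshold of 0.05. The 10 genes and all lists were chosen with earlier results of these data known. Named were the 10 genes, 17 others fixed with the lists (where listed), up to 4 genes past the threshold per list by smallest p, and the closest profiles; Irx1, Id4, Cdkn1a, Cdkn1c, Axin2, Acvr1 and all single markers of other cells but Upk3b and Kit were added after their values were seen. The procedure was run on simulated data drawn with the spread that limma itself had fitted. Such data cannot show whether that spread holds for these libraries. Read numbers use GENCODE M21 exon lengths and depths at which 84.6% to 87.3% of low values of single-exon genes came out whole (tolerance 0.02). They are implied and approximate; 64.2% to 70.8% of the whole ones were even, so separate fragments may be fewer. Alternatives covered scaling, pseudocounts of 0.25 and 4, a minimum mean of 5, the prior, the replicate number and each library.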

Additional observations from a re-analysis of the deposited data

How the results depend on the processing

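The 7 genes that rose, of 10, also numbered 7 without scaling, with median-of-ratios scaling, with either other pseudocount, with a minimum mean of 5, and with limma without trend; leaving out a library gave 4 to 7. Without scaling, 305 genes rose and 1558 fell in all, against 548 and 332; with a minimum mean of 5, 202 fell. Leaving out a library gave 197 to 387 higher and 56 to 260 lower genes, with fewer samples in each such fit.

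For same-numbered libraries, the correlations of their deviations from the group means were -0.05, -0.27 and -0.05 for numbers 1, 2 and 3. Differently numbered pairs had -0.14 to 0.22. With 3 libraries per group, these values cannot show whether libraries of the same number share more than the number. With the replicate block, 6 of the 10 genes passed (Zbtb7c had an adjusted p of 0.0968), and 209 genes rose and 128 fell in all. With the block, 0 genes of R-spondin and Wnt reception rose, 2 Wnt targets rose, 0 activin and BMP genes fell and 1 gene around Kitl and Cdkn1b fell.

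Without scaling, the counts that moved were 0 higher and 1 lower in Wnt reception, 3 lower among Wnt targets, 7 lower in the activin and BMP pathway, 4 lower among other early ovary genes and 5 lower around Kitl and Cdkn1b. With a minimum mean of 5 they were 4 higher in Wnt reception, 1 lower in the activin and BMP pathway, 0 lower among other early ovary genes (fewer genes tested) and 4 lower on the testis side. Leaving out a library gave 0 to 2 higher in Wnt reception, and 2 to 3 higher and 0 to 1 lower among Wnt targets. In the activin and BMP pathway it gave 2 to 4 higher and 0 to 2 lower. Around Kitl and Cdkn1b it gave 0 to 1 higher and 0 to 2 lower, and on the testis side 1 to 3 higher and 2 to 8 lower. The cause of these moves was not tested beyond the number of samples or genes.

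Over 68 genes, which are those the naming rule took and 15 added after their values were seen, each under up to 13 alternatives, 716 results kept direction and side of the threshold, 136 lost a call, 7 gained one and 10 changed sign, none of them past the threshold. Those were Kitl (-0.0045), Lgr4 (-0.0471) and Irx1 (-0.0454) without scaling, and, when a library was left out, Znrf3 (from -0.121 to 0.0145), Ctnnb1 (-0.0449 to 0.0372, above 0 in 2 fits), Kit (-0.0968 to 0.0225), Cbfb (-0.130 to 0.0124) and Irx1 (-0.0923 to 0.110). Of the 10 genes, Irx3 had the fewest implied reads, 146 to 262 per library.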
